A study of Homo sapiens with 17 samples.

Results

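The ZBTB genes encode transcription factors that join a BTB domain to C2H2 zinc fingers. They were taken by symbol, as every gene of the 1 h table named ZBTB followed by a number and at most 1 further letter, and 41 of the 19222 genes of the table met this rule. The BTB domain lets these proteins pair with each other and recruit corepressor complexes or the ubiquitin ligase scaffold CUL3, and the zinc fingers read the DNA sequence. Most of the well-studied family members repress transcription, and several are known as switches of blood cell lineages, as readers of methylated DNA or as binders of telomeres. As transcription factors, they belong to a functional class whose mRNAs are often short-lived.

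The cells were HEK-293T, a human embryonic kidney line that carries the SV40 large T antigen, recorded with a WT genotype in every group. TimeLapse sequencing (TL-seq) was used: RNA made in the presence of 4-thiouridine (s4U) is recoded chemically, so that its reads carry T-to-C conversions, and reads from older RNA do not. At 1 h, 3 untreated libraries had received 500 µM s4U alone and 3 emetine libraries had received 500 µM s4U with 1.8 µM emetine, an alkaloid that stops ribosomes during elongation. 1 untreated library and 1 library with 1.8 µM emetine had no s4U. At 2 h, 3 libraries each came from cells with 250 µM s4U and no emetine, 1.8 µM emetine or 240 µM emetine. The comparison of emetine with untreated cells asks which transcripts change in level and whether old or new RNA accounts for the change.

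Reads assigned to a gene numbered 22246279 to 40018063 per s4U library, 81.1% to 82.3% of the reads of the 8 libraries at 1 h. Replicates are not stated to come from separate cultures, so p-values measure the spread between these libraries, which may be technical. Emetine replicate 3 stood apart: around its group mean, genes deviated with an SD of 0.27 (log2), against 0.12 to 0.17 in the other 5 libraries. Its deviation followed transcript length (Spearman's rho 0.704 across 13498 genes). The deviations of a gene within a group sum to 0, so rho of −0.604 and −0.599 in emetine replicates 1 and 2 mirrors replicate 3. These 2 values cannot show an opposite length trend in replicates 1 and 2. Counts of calls are given with and without emetine replicate 3. So are the changes in level, labeled and unlabeled reads printed for ZBTB genes that this library moved by over 1.5 times. The 7 HEK-293T lineage markers examined, VIM and NEFM among them, summed to 1013 to 1140 CPM (counts scaled to library size by TMM) in untreated and 874 to 997 CPM in emetine libraries. The 5 of 8 blood cell markers in the table summed to 2.41 to 4.25 and 2.93 to 3.87 CPM, and the hepatocyte markers ALB and APOA1 to 0.283 to 0.645 and 0.188 to 0.399 CPM. CD4 reached at most 0.0287 CPM in an untreated library, and no marker that was in the table was at 0 in all 6 libraries. The blood cell markers PTPRC, CD3E and ITGAX had no entry in the table.

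Of the 41 ZBTB genes, 38 had more than 100 reads in total over the 6 s4U libraries and were tested for level. ZBTB16 (PLZF, a factor of innate-like T cells), ZBTB20 (a factor of hippocampal and liver development) and ZBTB32 (a lymphoid repressor) fell under this limit, and ZBTB32 had 1 read in the 6 libraries. At least 100 reads in each library were needed for the tests of labeling, which 31 genes reached. ZBTB7C, ZBTB8B, ZBTB26, ZBTB37, ZBTB42, ZBTB46 and ZBTB49 did not.

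These 4 sites were picked with the responses below known. 3 of the genes that carry them, ZBTB6, ZBTB34 and ZBTB39, appear among the strongest responses, and ZBTB26 had no call. Each is a 27-base window of a 3′ untranslated region (UTR) from the GRCh38 genome with GENCODE 44 transcripts, written 5′ to 3′ on the transcript strand, with the AU-rich nonamer TTATTTATT in capitals. They lie at chr9:122908391-122908417 (ZBTB6, minus strand), chr9:122915816-122915842 (ZBTB26, minus strand), chr9:126884965-126884991 (ZBTB34, plus strand) and chr12:57001265-57001291 (ZBTB39, minus strand).
ZBTB6: ttatttataTTATTTATTcctgttcag
ZBTB26: ctctgtcagTTATTTATTtattattta
ZBTB34: tggtcagggTTATTTATTaaattttat
ZBTB39: cattaatatTTATTTATTtttgttttt
The nonamer was searched on the transcript strand only. It occurred in the 3′ UTR of 6 of 38 tested ZBTB genes (15.8%) and of 9.62% of 12744 tested genes with a 3′ UTR. ZBTB genes also had longer 3′ UTRs, with a median of 2853 against 1358 bases. Within the last 1000 bases of 3′ UTRs at least that long, 3 of 32 ZBTB genes and 5.30% of 7559 genes carried it. ZBTB20, ZBTB37 and ZBTB8B carried it as well. ZBTB37 and ZBTB8B, like ZBTB26, had no call on level and too few reads for the tests of labeling, and ZBTB20 was not tested. ZBTB3, ZBTB9, ZBTB14 and ZBTB49, also among the strongest responses below, did not carry it. A link between the nonamer and the response was not tested.

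In untreated cells the ZBTB transcripts were scarce. Their mean levels ran from 1.98 CPM (ZBTB37) to 78.2 CPM (ZBTB33), with a median of 16.5 CPM against 25.7 CPM over all tested genes. Scaled to transcript length, ZBTB48 (TZAP, a telomere binder) was highest at 17.3 ± 1.66 CPM per kb (SD, n = 3). ZBTB33 (Kaiso, a reader of methylated CpG) followed at 14.9 ± 0.531 CPM per kb. Next came ZBTB17 (MIZ-1, a partner of MYC) at 10.8 ± 0.326 and ZBTB2 (a repressor of the p53 pathway) at 10.5 ± 0.507 CPM per kb, which lie within 1 SD of each other. Among tested genes ZBTB37 was lowest per length at 0.103 ± 0.0321 CPM per kb.

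The ZBTB transcripts had short half-lives, as did those of other C2H2 zinc finger genes. The fraction new is the share of a gene's reads that came from RNA made during the hour of labeling, and the half-life follows from it under a steady state. The median half-life of the 31 genes was 1.15 h (range 0.419 to 5.25 h), against 5.65 h over 10763 tested genes and 1.45 h over the 282 tested genes with ZNF symbols. By untreated library the ZBTB median was 1.55, 1.12 and 0.987 h, and the median of all genes 7.13, 5.26 and 4.36 h, so that replicate 1 gave the longest half-lives for both. All 31 lay below the median of all genes and 30 lay below the lower quartile. 11 of 31 were under 1 h, against 4.62% of all genes, and 23 were under 2 h, against 14.4%.

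ZBTB6 had the shortest half-life, 0.419 ± 0.13 h (SD, n = 3), and was followed by ZBTB3 at 0.442 ± 0.0608 h and ZBTB43 at 0.505 ± 0.147 h. These 3 do not differ beyond their spread. ZBTB14 (ZF5, a repressor of the MYC promoter) had 0.586 ± 0.0641 h, ZBTB39 0.655 ± 0.244 h and ZBTB9 0.657 ± 0.152 h. At the other end, ZBTB44 had the longest mean half-life, 5.25 ± 2.13 h, with a spread that overlapped that of ZBTB12 at 2.77 ± 1.32 h and ZBTB17 at 2.68 ± 0.862 h.

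Conversions can be read directly in these genes. In ZBTB6, 71.9%, 82.2% and 88.3% of the reads of the untreated s4U libraries carried at least 1 T-to-C conversion. The share was 54.4%, 62.2% and 55.5% in the emetine s4U libraries. Without s4U it was 0.778% of 257 reads (2 reads) in the untreated and 4.08% of 294 reads (12 reads) in the emetine library. In the untreated library without s4U 0 of 257 reads carried 2 or more conversions, which with a limit of 3 reads allows a share of up to 1.17%, and the emetine library had 0 of 294 as well. In ZBTB14 it fell from 63.7%, 69.8% and 65.8% to 33.2%, 37.5% and 42.8%, with 1.12% (untreated) and 2.05% (emetine) without s4U. Both genes kept the groups apart in these raw shares.

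**Figure D1:**
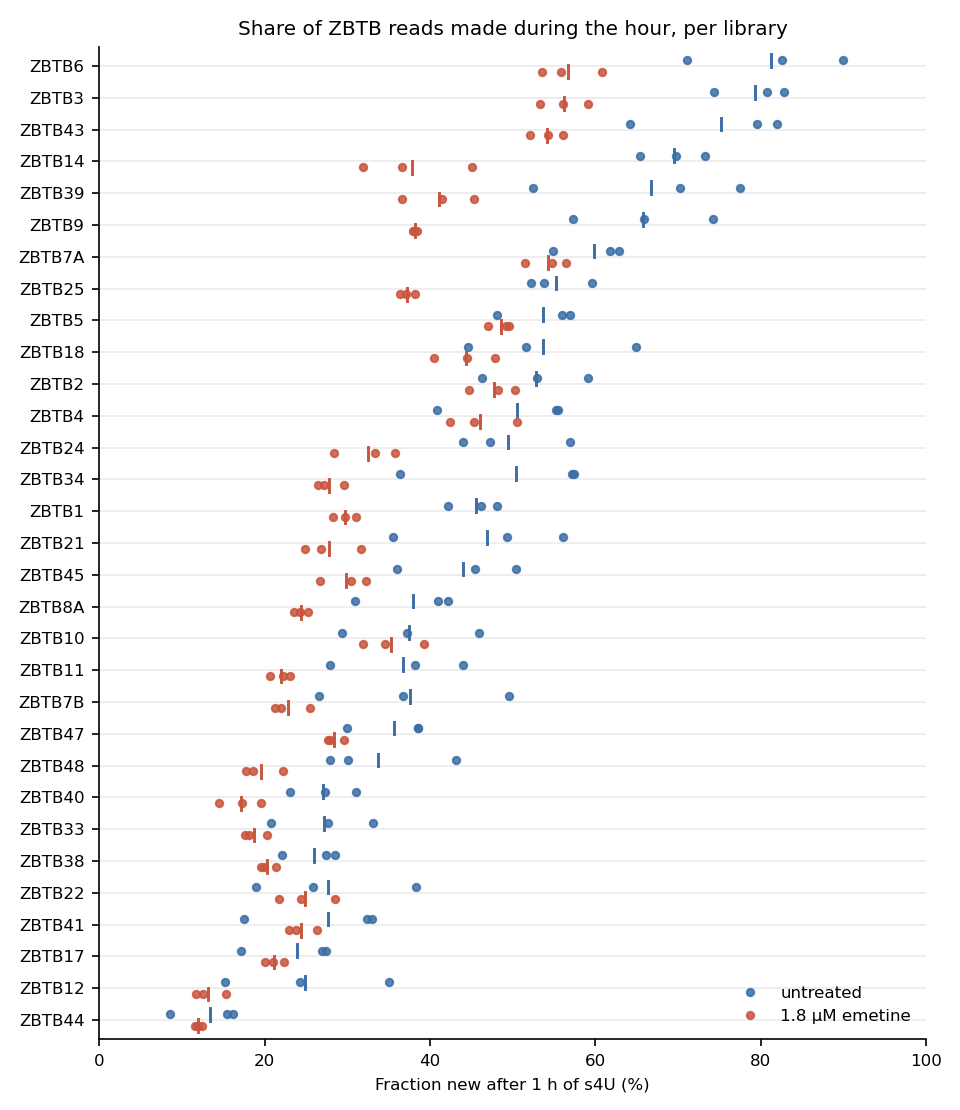
Fraction new (percent of reads from RNA made in 1 h of s4U labeling) of the 31 tested ZBTB genes, ordered by half-life in untreated cells, shortest at the top. Points are libraries (3 untreated, 3 with 1.8 µM emetine), vertical bars are group means. In 20 genes the 3 emetine points lie below the 3 untreated points.

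After 1 h of emetine, the fraction new was lower in 13 of 31 ZBTB genes and higher in none (limma on the logit, Benjamini-Hochberg adjusted p under 0.05). Over all 10763 genes 4.83% were lowered and 0.214% raised. The change was below 0 in all 31, and in 8132 of all 10763 genes, with a median of −0.63 logit units against −0.16 over all genes. At an unadjusted p under 0.05 (limma), 19 were lowered, against 1655 of all genes. The emetine libraries all lay below the untreated ones in 20 of 31, against 16.8% of all genes, and above them in 0, against 2.19%. The call count depended on single libraries: it was 22 without untreated replicate 1, where 23.5% of all genes were lowered. It was 4 without untreated replicate 2 (1.73% of all genes), 3 without untreated replicate 3 (0.873%), 3 without emetine replicate 1 (1.55%), 4 without emetine replicate 2 (1.80%) and 6 without emetine replicate 3 (205 of 10763 genes), namely ZBTB3, ZBTB6, ZBTB9, ZBTB14, ZBTB34 and ZBTB39. The median change of the ZBTB genes stayed between −0.78 and −0.48 in these fits. With only replicates 1 and 2 of both groups, a fit added after the data were seen, 2 were lowered (148 of all 10763 genes) and the median was −0.46 against −0.023 over all genes.

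The fraction new of ZBTB14 was 65.4%, 73.3% and 69.7% in untreated and 32%, 36.6% and 45.1% in emetine libraries, a logit change of −1.33 ± 0.24 (SE, adjusted p = 1.1e-04, limma). This was the smallest adjusted p of the family, and it stayed under 0.05 when any 1 library was left out (highest 0.0187). Exons of ZBTB14 (chr18:5289019-5297053) overlap the antisense transcript LINC00667, and the strand setting of the counting is not given in the sources used here. For ZBTB6 it was 71.1%, 82.6% and 90.0% untreated and 53.6%, 60.8% and 55.9% with emetine, a logit change of −1.28 ± 0.27 (SE, adjusted p = 0.00147, limma). ZBTB6 lies on chr9:122908056-122913323 beside ZBTB26. ZBTB9 had values of 57.3%, 65.9% and 74.3% without and 38%, 38% and 38.5% with emetine, a logit change of −1.15 ± 0.24 (SE, adjusted p = 9.3e-04, limma). The 3 emetine libraries of ZBTB9 differed by less than 1 percentage point, and the highest adjusted p with 1 library left out was 0.0393.

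The fraction new of ZBTB3 was 74.3%, 82.8% and 80.7% in untreated and 56.1%, 53.3% and 59.1% in emetine libraries, a logit change of −1.11 ± 0.26 (SE, adjusted p = 0.00334, limma). For ZBTB39 it was 52.5%, 70.3% and 77.5% untreated and 36.6%, 45.4% and 41.5% with emetine, a logit change of −1.09 ± 0.25 (SE, adjusted p = 0.00340, limma). ZBTB43 had values of 64.2%, 79.6% and 81.9% without and 54.3%, 52.1% and 56% with emetine, a logit change of −0.99 ± 0.26 (SE, adjusted p = 0.0107, limma). In each of these 3 genes all emetine libraries lay below all untreated libraries, and untreated replicate 1 was the lowest of its group. ZBTB43 lies upstream of ZBTB34 on chromosome 9. The fraction new of ZBTB34 was 36.4%, 57.5% and 57.2% in untreated and 26.4%, 27.2% and 29.6% in emetine libraries, a logit change of −0.97 ± 0.23 (SE, adjusted p = 0.00421, limma). For ZBTB21 it was 35.5%, 49.3% and 56.1% untreated and 24.9%, 31.7% and 26.8% with emetine, a logit change of −0.83 ± 0.23 (SE, adjusted p = 0.0150, limma). ZBTB25 had values of 52.3%, 59.6% and 53.8% without and 37.1%, 38.2% and 36.3% with emetine, a logit change of −0.73 ± 0.23 (SE, adjusted p = 0.0424, limma). ZBTB25, a repressor studied in T cells, shared its locus on chromosome 14 with ZBTB1.

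The other 4 calls had changes between −0.73 and −0.71. The fraction new of ZBTB11 was 28%, 38.2% and 44% in untreated and 23.1%, 22.2% and 20.7% in emetine libraries, a logit change of −0.71 ± 0.22 (SE, adjusted p = 0.0361, limma). Exons of ZBTB11, a factor of neutrophil development, overlap the antisense transcript ZBTB11-AS1. For ZBTB48 it was 27.9%, 30.1% and 43.2% untreated and 17.8%, 18.6% and 22.2% with emetine, a logit change of −0.73 ± 0.21 (SE, adjusted p = 0.0282, limma). ZBTB24 had values of 44%, 47.3% and 56.9% without and 33.4%, 35.7% and 28.4% with emetine, a logit change of −0.71 ± 0.23 (SE, adjusted p = 0.0485, limma). ZBTB24 is the gene mutated in a form of the ICF immunodeficiency syndrome. The fraction new of ZBTB12 was 15.2%, 24.3% and 35.1% in untreated and 12.6%, 11.8% and 15.3% in emetine libraries, a logit change of −0.73 ± 0.22 (SE, adjusted p = 0.0397, limma). ZBTB12 was the only lowered gene whose groups overlapped, since untreated replicate 1 lay under emetine replicate 3.

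Among the 18 tested genes without a call, ZBTB1 (a factor of lymphoid development) came nearest, with a logit change of −0.68 ± 0.22 (adjusted p = 0.0510, limma). ZBTB7B (ThPOK, which directs CD4 T cell fate) was next at −0.69 ± 0.22 (adjusted p = 0.0524, limma). ZBTB10, ZBTB44, ZBTB22, ZBTB17 and ZBTB41 had the values nearest 0, from −0.09 to −0.14. Some short-lived genes had no call. ZBTB7A (LRF, a repressor of fetal globin genes) had 0.764 ± 0.0938 h, yet its logit change was −0.23 ± 0.24 (adjusted p = 0.727, limma). ZBTB5 and ZBTB2, repressors of CDKN1A, had half-lives of 0.908 and 0.937 h and changes of −0.20 each. In simulated data of this size a logit change of 1.0 was recovered in 81.5% of genes and one of 0.5 in none. The simulation changed 200 genes, so its recovery rates may differ from those in these data.

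With a limit of 50 reads per library 8 of 37 ZBTB genes were lowered (2.53% of all genes). ZBTB49 entered with the largest change of the family, −1.63 ± 0.28 logit units (adjusted p = 0.00543, limma). Its reads were 62.6%, 72.3% and 82.8% new in the untreated and 30.0%, 31.9% and 43.9% new in the emetine libraries, without overlap, on 76 to 338 reads per library. ZBTB46 (a factor of classical dendritic cells) was also lowered, with a change of −0.84 ± 0.21 (adjusted p = 0.0348, limma). Its exons overlap those of SLC2A4RG on the other strand.

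**Figure D2:**
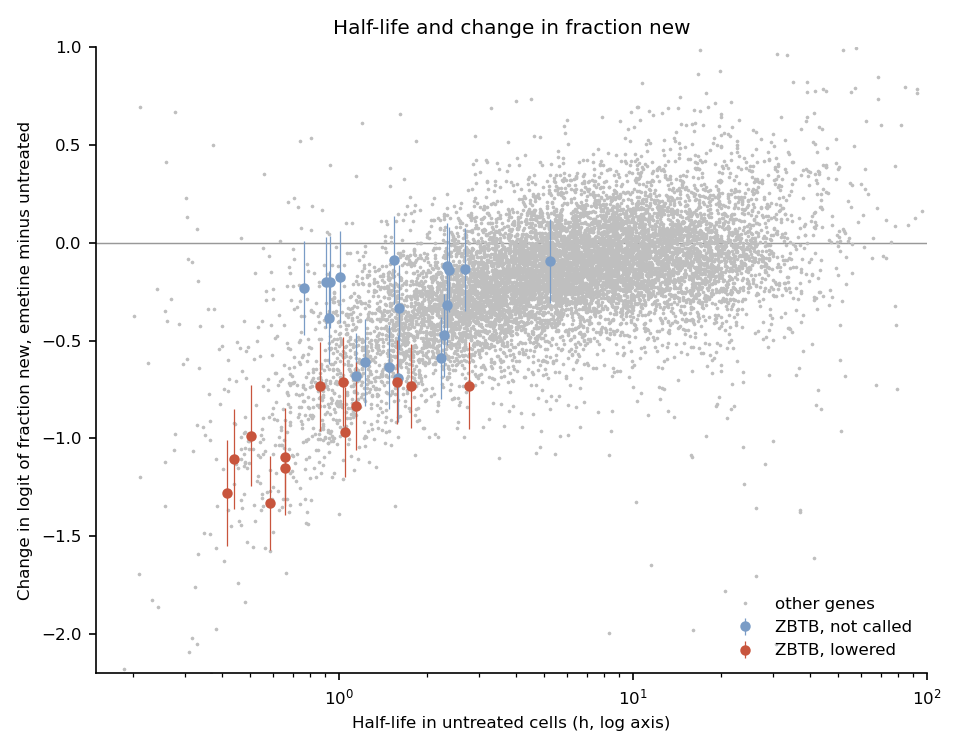
Change in the logit of the fraction new (emetine minus untreated, bars are standard errors) against the half-life in untreated cells (h, log axis). Large points are the 31 ZBTB genes (13 lowered, 18 not called) and small grey points the other genes, of which 64 of 10732 lie outside the axes. The ZBTB genes lie at the short end, and lowered genes reach −1.33.

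The change in fraction new followed the half-life. Over the 31 genes both quantities correlated with Pearson's r = 0.54 and Spearman's rho = 0.592, as a description, since both use the untreated fraction new and genes are not independent. Over 10680 genes the same values were 0.360 and 0.544. Of the 11 ZBTB genes under 1 h, 7 were lowered, against 50.7% of 497 genes in that range, and their median change was −0.99 against −0.77. Between 1 and 2 h, 5 of 12 were lowered, against 17.2% of 1055, with a median of −0.69 against −0.46. Between 2 and 4 h it was 1 of 7, against 2.53% of 2252, with a median of −0.32 against −0.27.

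Levels shifted in the other direction. 3 of 38 ZBTB genes were raised and none lowered (edgeR quasi-likelihood test, adjusted p under 0.05), against 2.64% raised and 0.0436% lowered of 13776 genes. At an unadjusted p under 0.05 (edgeR), 22 were raised and 0 lowered, against 2056 and 958 of all 13776 genes. The log2 change was above 0 in 32 of 38 (54.0% of all genes), with a median of 0.38 against 0.030 over all genes. The emetine libraries all lay above the untreated ones in 25 of 38 (19.5% of all genes), and below them in 1, ZBTB22 (15.2%). The count of 3 was unstable: it was 0 without any 1 untreated replicate (0.0363% to 0.138% of all genes), 1 without emetine replicate 1 (1.04%), 3 without emetine replicate 2 (1.78%) and 15 without emetine replicate 3, where 9.91% of all genes were raised and 3.83% lowered, with 0 ZBTB genes lowered. It was 1 with robust dispersion estimates in edgeR (2.42% of all genes), which were run first and replaced after their counts over all genes and over the ZBTB genes were seen, and DESeq2 gave 12 (5.95%). In bulk RNA, fewer cells with a transcript and less RNA per cell cannot be told apart.

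ZBTB49 stood at 2.72, 4.58 and 4.20 CPM in untreated and 8.54, 8.44 and 10.2 CPM in emetine libraries, a log2 change of 1.23 ± 0.21 (adjusted p = 0.0206, edgeR). All 3 emetine libraries lay above 8 CPM and all untreated ones below 5. ZBTB49, on chr4:4290251-4321786, works with MIZ-1 on CDKN1A. The level of ZBTB24 was 34.4, 33.3 and 34.2 CPM untreated and 44.4, 46 and 57.2 CPM with emetine, a log2 change of 0.53 ± 0.11 (adjusted p = 0.0458, edgeR). ZBTB14 stood at 10.2, 8.45 and 10.6 CPM in untreated and 14.8, 14.7 and 20.4 CPM in emetine libraries, a log2 change of 0.77 ± 0.17 (adjusted p = 0.0496, edgeR). Both rose in every emetine library without overlap, most in replicate 3. Without that library the changes were 0.42 (ZBTB24) and 0.61 (ZBTB14), and 1.14 for ZBTB49. Up to 66 reads per library shared between ZBTB24 and MICAL1 were left out of these counts.

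Without emetine replicate 3, the genes raised were these 3 and ZBTB1, ZBTB2, ZBTB5, ZBTB6, ZBTB10, ZBTB11, ZBTB21, ZBTB38, ZBTB40, ZBTB45, ZBTB46 and ZBTB48. The level of ZBTB21 was 14.7, 14.4 and 14.6 CPM untreated and 21.4, 22.1 and 37.3 CPM with emetine, a log2 change of 0.88 ± 0.21 (adjusted p = 0.0604, edgeR). Emetine replicate 3 lay far above the other emetine libraries, and without it the change was 0.58 ± 0.09 (adjusted p = 6.7e-04, edgeR). ZBTB6 stood at 7.13, 7.91 and 8.87 CPM in untreated and 11.4, 11.5 and 18.9 CPM in emetine libraries, a log2 change of 0.80 ± 0.21 (adjusted p = 0.0909, edgeR). Without emetine replicate 3 the change was 0.53 ± 0.12 (adjusted p = 0.0115, edgeR). The level of ZBTB48 was 36.1, 43.1 and 42.6 CPM untreated and 54.3, 55.9 and 46 CPM with emetine, a log2 change of 0.36 ± 0.11 (adjusted p = 0.142, edgeR). Here emetine replicate 3 was the lowest of its group, and without it the change was 0.44 ± 0.08 (adjusted p = 0.00197, edgeR).

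The other 6 genes had values below 0: ZBTB42 (−0.31), ZBTB22 (−0.25), ZBTB7A (−0.21), ZBTB7C (−0.13), ZBTB47 (−0.07) and ZBTB12 (−0.04). The change of ZBTB12 was −0.13 without emetine replicate 3. None passed the test, and all 6 lay above 0 when libraries were scaled to the spike-in reads, yet below the median of all genes under that scaling. It moved the median of all genes from 0.030 to 0.71 and that of the ZBTB genes to 1.07, so the ZBTB median lay above the median of all genes by 0.36, against 0.35 with TMM. The share of spike-in reads varied within the groups, from 0.480% to 0.728% in untreated and 0.304% to 0.666% in emetine s4U libraries.

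**Figure D3:**
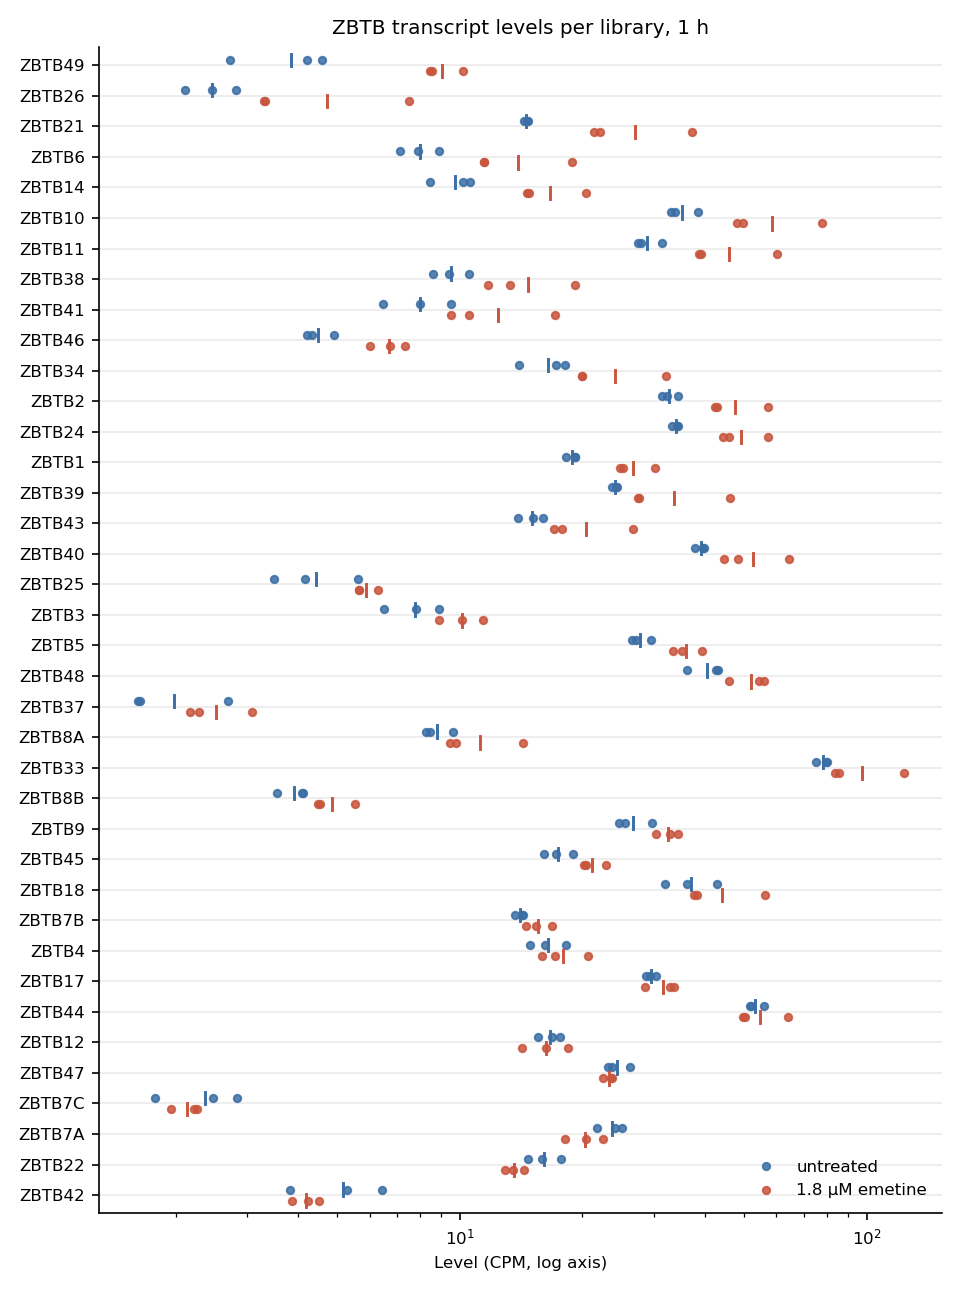
Level (CPM, log axis) of the 38 tested ZBTB genes in the 3 untreated and the 3 emetine libraries at 1 h, ordered by log2 change from ZBTB49 (1.23) down to ZBTB42 (−0.31). Points are libraries and vertical bars are group means. In 25 genes the emetine points lie above all untreated points, with emetine replicate 3 often the farthest.

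To see which RNA accounted for these levels, CPM were split into labeled reads (CPM times fraction new) and unlabeled reads. Unlabeled reads, from RNA older than the hour, were raised in 14 of 31 ZBTB genes and lowered in none (limma on log2(CPM + 0.5), adjusted p under 0.05), against 7.30% raised and 0.0929% lowered of all genes. The median log2 change was 0.63 against 0.042. Labeled reads were raised in 0 and lowered in 0 (0.260% and 0.632% of all genes) by limma, with a median of −0.11 against −0.14. At an unadjusted p under 0.05 (limma), 1 was raised and 2 lowered, against 176 and 1138 of all 10763 genes. Both kinds of reads rest on TMM scaling, so their changes are relative to all genes. Spike-in scaling, which raised the level changes, was not run for labeled or unlabeled reads. In 11 genes unlabeled reads were raised and the fraction new lowered: ZBTB3, ZBTB6, ZBTB9, ZBTB11, ZBTB14, ZBTB21, ZBTB24, ZBTB34, ZBTB39, ZBTB43 and ZBTB48. Over all genes 3.37% met both criteria. The 2 measures are built from the same fraction new, and among all genes with a lower fraction new 69.8% also had raised unlabeled reads. The unlabeled count was 5 without untreated replicate 2 (2.68% of all genes), 5 without untreated replicate 3 (2.52%), 19 without emetine replicate 3 (13.7%) and 7 with the replicate number as a block (3.25%).

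Unlabeled CPM of ZBTB6 were 2.1, 1.4 and 0.89 in untreated and 5.32, 4.50 and 8.33 in emetine libraries, a log2 change of 1.76 ± 0.28 (adjusted p = 0.00679, limma). The groups did not overlap. Unlabeled CPM of ZBTB14 were 3.52, 2.26 and 3.21 in untreated and 10.1, 9.29 and 11.2 in emetine libraries, a log2 change of 1.63 ± 0.18 (adjusted p = 0.00169, limma). Again every emetine library was higher, and the highest adjusted p with 1 library left out was 0.0152. Unlabeled CPM of ZBTB3 were 1.68, 1.35 and 1.71 in untreated and 3.90, 4.73 and 4.67 in emetine libraries, a log2 change of 1.25 ± 0.17 (adjusted p = 0.00332, limma). Labeled CPM of ZBTB14, in contrast, were 6.66, 6.19 and 7.41 in the untreated and 4.73, 5.37 and 9.20 in the emetine libraries, which overlapped (log2 change −0.12 ± 0.25, and −0.39 without emetine replicate 3).

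ZBTB1, ZBTB2 and ZBTB10 had raised unlabeled reads with no call on the fraction new. ZBTB10, a binder of variant telomere repeats, had the highest labeled change of the family, 0.61 ± 0.23 (adjusted p = 0.201, limma), beside an unlabeled change of 0.75 ± 0.16 (adjusted p = 0.0242). ZBTB10 stood at 33.1, 33.8 and 38.5 CPM in untreated and 49.6, 48.1 and 77.9 CPM in emetine libraries, a log2 change of 0.73 ± 0.18 (adjusted p = 0.0734, edgeR). Without emetine replicate 3, the highest of its group, the level change was 0.48 ± 0.07 (adjusted p = 8.3e-04, edgeR), and the labeled change 0.31 ± 0.27. For ZBTB2 the labeled change was 0.38 ± 0.23 and the unlabeled change 0.66 ± 0.14 (adjusted p = 0.0243, limma). For ZBTB1 they were −0.11 ± 0.25 and 0.83 ± 0.14 (adjusted p = 0.00689, limma). Without emetine replicate 3 the labeled changes were 0.20 (ZBTB2) and −0.20 (ZBTB1). At the other end ZBTB12 had the lowest labeled change, −0.75 ± 0.27 (adjusted p = 0.165, limma), and an unlabeled change of 0.17 ± 0.16, the latter 0.10 without emetine replicate 3.

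**Figure D4:**
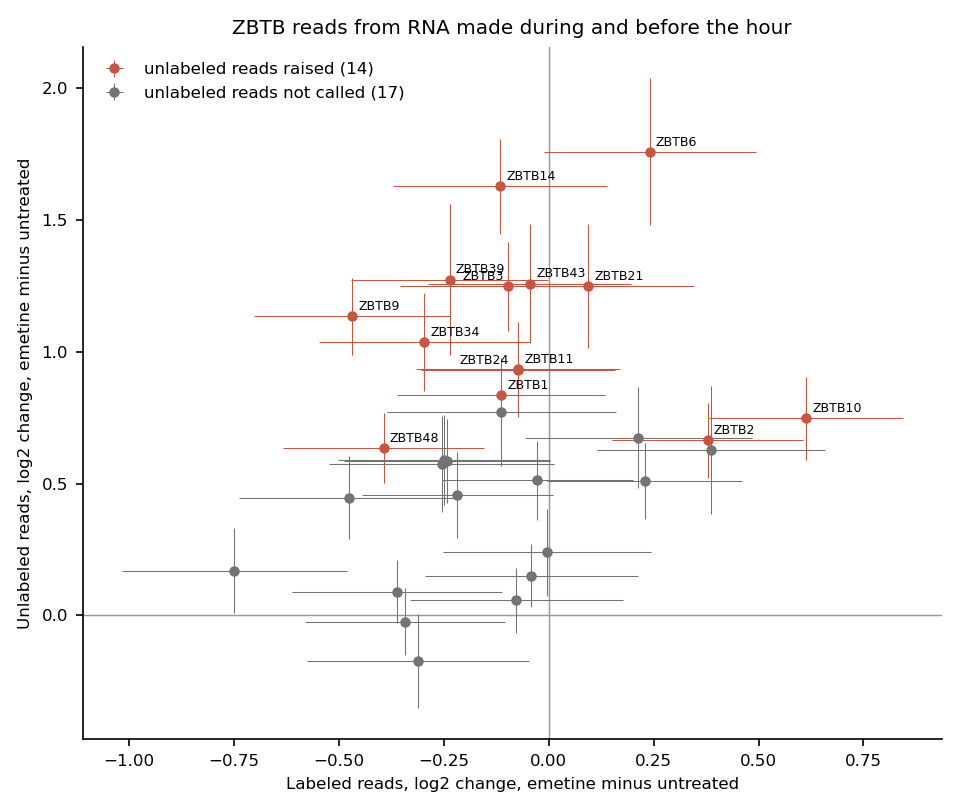
Log2 change (emetine minus untreated) of unlabeled reads against labeled reads for the 31 ZBTB genes, with standard errors. The 14 genes with raised unlabeled reads are named and lie between 0.63 and 1.76 on the vertical axis, while their labeled changes lie on both sides of 0.

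The calls by role were as follows, with no test between roles. None of the 3 methyl-CpG readers, ZBTB33, ZBTB4 and ZBTB38, was called in any measure, although the emetine libraries did not overlap with the untreated ones and lay above them for the level of ZBTB33 and ZBTB38. Of the cell cycle partners, ZBTB49 was raised in level and ZBTB2 in unlabeled reads, and ZBTB17 and ZBTB5 had no call. Of the blood lineage factors, ZBTB24 was raised in level, ZBTB24 and ZBTB25 had a lower fraction new, and ZBTB1 and ZBTB24 raised unlabeled reads. ZBTB7A and ZBTB7B had no call. ZBTB46 was tested for level only at these limits, and its fraction new was lowered at 50 reads per library. Both telomere binders, ZBTB48 and ZBTB10, had raised unlabeled reads, and ZBTB48 also had a lower fraction new. Of the brain and muscle factors, ZBTB18 (a repressor of cortical development), ZBTB42 (a muscle factor) and ZBTB45 had no call in the measures tested. ZBTB42 was tested for level only at these limits. The 20 symbols outside these lists, ZBTB11 among them, held 16 of the 31 genes tested for fraction new and 10 of the 13 lowered ones. Without emetine replicate 3, ZBTB38, ZBTB2, ZBTB5, ZBTB1, ZBTB46, ZBTB10, ZBTB48 and ZBTB45 of the listed roles were raised in level as well. ZBTB5 and ZBTB18 were then among the genes with raised unlabeled reads.

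BTB zinc finger genes with other names were called in part. Of 8, MYNN and GZF1 were raised in level, with log2 changes of 0.62 ± 0.10 and 0.64 ± 0.12 (adjusted p = 0.0196 and 0.0307, edgeR). MYNN and BCL6B had a lower fraction new and MYNN, GZF1 and ZNF131 raised unlabeled reads, of 6 tested. The 18 corepressors and partners of BTB domains, such as NCOR1, BCOR and HDAC3, had no call by edgeR or limma in any measure, with a median log2 level change of 0.078. Of 10 genes known as targets of ZBTB proteins, 6 were tested and none was called by either tool, and CDKN1A had a log2 level change of −0.19 ± 0.11. ZNF-named genes, the larger C2H2 class, had a median log2 level change of 0.50 (89 of 422 raised) and a median logit change of −0.57 in fraction new (110 of 282 lowered), beside 0.38 and −0.63 for ZBTB genes.

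Without s4U, 1 library stood on each side, so there is no replicate check. The log2 ratio of emetine to untreated CPM had a median of 0.15 over 38 ZBTB genes and 0.0015 over all genes, and 26 of 38 were above 0 (50.2% of all genes). It passed 0.5 in 5 (8.10% of all genes) and fell under −0.5 in 3 (5.07%). ZBTB49 had the highest ratio, 1.19 (95% exact interval 0.88 to 1.51, counting error only), from 4.84 to 11 CPM. ZBTB14 had 0.29 (0.07 to 0.51) and ZBTB24 0.25 (0.13 to 0.38). ZBTB41 had the lowest ratio, −1.05 (−1.31 to −0.80), while its change with s4U was 0.62 ± 0.24, and 0.32 without emetine replicate 3. In 9 genes the ratio without s4U was below 0 and the change with s4U above 0: ZBTB41 and, with these ratios, ZBTB18 (−0.67), ZBTB38 (−0.44), ZBTB33 (−0.37), ZBTB44 (−0.29), ZBTB6 (−0.24), ZBTB11 (−0.19), ZBTB4 (−0.04) and ZBTB8B (−0.01). The opposite held in 3, ZBTB7C, ZBTB22 and ZBTB42, whose intervals all included 0, as did those of ZBTB4, ZBTB6 and ZBTB8B.

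In their medians the genes differed from all genes in transcript length and exon number, with wide ranges. They also differed in zinc finger content, which follows from the family that the symbol names. The median transcript was 5242 bases (1963 to 19183) against 3290 over all tested genes, with 3 exons (1 to 18) against 9, and 29 of 38 were longer and 33 had fewer exons than those medians. Cysteine and histidine codons, which build C2H2 fingers, made up a median of 7.39% of codons against 4.40%, and ZBTB4, ZBTB10 and ZBTB33 lay under the latter. A C2H2 pattern in the translated coding sequence occurred a median of 4 times, and from 1 in ZBTB5, ZBTB9, ZBTB22 and ZBTB43 to 14 in ZBTB41. The log2 level change was lower where more codons ended in G or C (Pearson's r = −0.65, Spearman's rho = −0.60, n = 31 genes), with ZBTB7A at 92.6% and ZBTB41 at 28.1% such codons. Without emetine replicate 3 it was −0.54 and −0.49, and over 10423 genes −0.30 and −0.32. Transcript length followed the level change with r = 0.316, and with r = 0.132 without emetine replicate 3. The share of cysteine and histidine codons followed the change in fraction new with r = −0.28. These correlations across genes of the same 6 libraries are descriptions.

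At 2 h the deposited tables give, per gene, the authors' mean of normalized counts over all libraries, which does not separate the groups. 34 ZBTB symbols were among their 9982 genes. This mean was highest for ZBTB10 at 6612, ZBTB44 at 4892 and ZBTB11 at 4084, and lowest for ZBTB20 at 125 normalized counts. ZBTB12, ZBTB22, ZBTB42, ZBTB45 and ZBTB7C, tested at 1 h, were not in the 2 h tables used here. The libraries at 2 h came from a total RNA kit and those at 1 h from an mRNA kit, so levels are not compared between the times.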

How the data were processed

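The authors removed adapters with cutadapt, aligned the 1 h reads to hg38 with HISAT-3N and deposited a table of unnormalized read counts by library, gene, number of T positions and number of T-to-C conversions. The strand setting is not given in the sources used here. The signal values at 2 h are the authors' mean of normalized counts over all libraries, as deposited. The authors' own fold changes, standard errors and p-values at 2 h were left out, as were the spike-in size factors.

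Counts were summed per gene and compared with edgeR 4.0.16 (TMM, quasi-likelihood, genes with more than 100 counts, no robust estimates) in R 4.3.3. The fraction new was the maximum likelihood weight of a mixture of 2 binomials, with the background conversion rate from the library without s4U of the same treatment (0.0504% and 0.0521% of T) and the rate in new reads fitted per library (8.49% to 9.53%), in Python 3.11.15 with numpy 2.4.6 and scipy 1.17.1. It stands in for bakR, which was not run. Its logit, bounded at 0.001 and 0.999, and labeled and unlabeled reads (log2 of CPM + 0.5) were compared with limma 3.58.1 (trend, robust) where every library held 100 or more reads of the gene. P-values were two-sided and adjusted by Benjamini-Hochberg over all genes tested. Half-life is −ln(2) × 1 h / ln(1 − fraction new).

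Of the 19222 gene symbols, 17147 matched GENCODE 44 on GRCh38 directly and 1167 by an older symbol. The C2H2 pattern was 2 cysteines 2 to 4 residues apart, 12 residues, then 2 histidines 3 to 5 residues apart. On simulated data, edgeR recovered 73.7% of level changes of 0.8 and 96.4% of 1.5 (log2), with 6.41% and 7.32% of calls false. For a logit change of 1.0 in fraction new, 9.94% of calls were false, and for 0.5, where no changed gene was recovered, 100% were. No molecular identifiers are described, so intervals cover counting error only. The smallest p-value of an exact permutation test of 3 against 3 libraries is 0.1.

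The genes and lists were chosen with earlier results of these data known. Every ZBTB gene could be named, and other genes only from fixed lists. Values per library were given for the 3 genes raised in level and the 13 with a lower fraction new. For raised unlabeled reads they were given for only some of the genes. Alternatives were DESeq2 1.42.0, other scalings, filters, pseudocounts and rates, a length and GC trend (mgcv 1.9.3), a replicate block and leaving out libraries. Robust edgeR estimates were run first and replaced by the non-robust fit after the counts over all genes and over the ZBTB genes were seen.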

Additional observations from a re-analysis of the deposited data

How the results depend on the processing

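Shares in parentheses are those of all genes in the same fit. Against 3 genes raised in level (2.64%), 1 was raised with DESeq2 size factors in edgeR (2.03%), 9 with no filter on low counts (2.70%), 12 with DESeq2 (5.95%), 14 with a length and GC trend removed (7.16%), 1 with spike-in scaling (0.436%, with a ZBTB median of 1.07 and 0.71 over all genes), 14 with replicates 1 and 2 only (9.21%), 1 with robust edgeR estimates (2.42%), and 0 to 15 with 1 library left out (0.0363% to 9.91%). Same-numbered libraries showed little shared deviation: their deviations correlated at 0.083, 0.019 and −0.12 for level and 0.056, 0.0025 and 0.022 for fraction new. These values cannot show whether the libraries were prepared in pairs. With the number as a block, 0 genes were raised in level (0.544%), 15 had a lower fraction new (6.01%) and 7 had raised unlabeled reads (3.25%). Against 13 genes with a lower fraction new (4.83%), there were 8 at 50 reads (2.53%), 5 at 500 reads (3.22%), 2 with replicates 1 and 2 only (148 genes of 10763), and 3 to 22 with 1 library left out (0.873% to 23.5%). Raised unlabeled reads then numbered 5 to 19 (2.52% to 13.7%), and lowered labeled reads 0 to 4 (0.0186% to 16.1%). The median labeled change then ran from −0.27 to 0.012. Without s4U, spike-in scaling turned the median to −0.0086, while that of all genes fell to −0.16. The cause of these shifts was not tested.

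Spike-in scaling, which moved the median level change of all genes to 0.71, gave ZBTB7A 0.49, ZBTB7C 0.60, ZBTB12 0.66, ZBTB22 0.42, ZBTB42 0.34 and ZBTB47 0.59, all below that median as they were below it with TMM. The other changes of sign were in genes without a call in that measure. Removing the length and GC trend gave ZBTB12 0.12 and ZBTB44 −0.15, and replicates 1 and 2 only gave ZBTB4 −0.0062 and ZBTB44 −0.11. With 1 library left out, level ranged from −0.31 to 0.014 (ZBTB7C), −0.13 to 0.052 (ZBTB12) and −0.088 to 0.10 (ZBTB44). For fraction new, centering gave ZBTB10 0.037, ZBTB22 0.0073 and ZBTB44 0.031, and replicates 1 and 2 only gave ZBTB10 0.0028, ZBTB22 0.043, ZBTB41 0.0075 and ZBTB44 0.037. With 1 library left out, it ranged from −0.27 to 0.090 (ZBTB10), −0.35 to 0.14 (ZBTB22), −0.41 to 0.0081 (ZBTB41) and −0.33 to 0.035 (ZBTB44). Labeled changes then ranged from −0.25 to 0.012 (ZBTB3), −0.29 to 0.12 (ZBTB11), −0.39 to 0.060 (ZBTB14), −0.13 to 0.30 (ZBTB21), −0.14 to 0.035 (ZBTB24), −0.20 to 0.028 (ZBTB25) and −0.27 to 0.066 (ZBTB43). No unlabeled change of the 16 called and tested genes changed sign under the alternatives run, and the median half-life stayed between 1.06 and 1.30 h. Genes with few reads, such as ZBTB49, limit the tests of labeling.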
